A study of Arabidopsis thaliana with 28 samples.

Results

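A pair of *Arabidopsis* lines with nearly equal amounts of *IDD4* transcript was compared, the phospho-mimic line *IDD4-DD* and *IDD4ox*, which overexpresses the unmodified protein. The comparison draws on 4 of the 28 samples of the series, with 2 samples labelled *IDD4-DD* and 2 labelled *IDD4ox*, and on 19036 of 27371 genes, those with at least 1 FPKM (mapped fragments divided by transcript length and by the library's size) in either line. Its purpose follows from the constructs: with the transcript level matched, the lines differ by design in the residues of IDD4 that a kinase can phosphorylate.

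All groups were whole 14-day-old ColO seedlings. *IDD4-DD* carried *pUBI10::IDD4-DD:RFP*, in which Asp replaces Ser-73 and Thr-130, and *IDD4ox* carried *pUBI10::IDD4:GFP*. Values of *IDD4-AA*, which has Ala at both positions and an RFP tag, and of the ColO wild type (WT) of the same experiment stand beside them as levels. The titles and genotypes of these samples name no treatment, whereas a protocol text shared by every sample of the series mentions flg22. Several features limit the lines as a model of phosphorylation. The ubiquitin promoter is active in most tissues, the native *IDD4* gene remained intact, the fluorescent tag differed between the 2 lines, the paper places GFP of the overexpressor before *IDD4* where the labels place it after, and the labels do not say whether the 2 samples of a group came from separate transformants. The deposited table holds 1 FPKM value per gene and group, into which the authors merged the replicates. The differences therefore come without a replicate check, an error or a test, and the read depth is unknown.

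IDD proteins, also called BIRD proteins, are plant-specific transcription factors whose zinc fingers bind DNA and which work with GRAS proteins such as SHR, SCR, SCL3 and the DELLA repressors of gibberellin signalling. IDD4 is a substrate of MPK6, one of the MAP kinases that pattern receptors activate within minutes of sensing a microbe. Aspartic acid carries a negative charge and is widely used as a stand-in for a phosphorylated serine or threonine, whereas alanine cannot be phosphorylated.

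The 2 mutagenesis oligos of the study define the mutant protein. They are shown with the matching stretch of the reference, in capitals the codon that was exchanged, because this is the designed difference between the 2 lines. Both lie in the second coding exon of *IDD4* (AT2G02080), on the minus strand of chromosome 2 of TAIR10.1, the first at chr2:520617-520650 and the second at chr2:520446-520478.

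Ser-73, TAIR10.1: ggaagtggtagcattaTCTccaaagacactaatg
Ser-73 to Asp, oligo: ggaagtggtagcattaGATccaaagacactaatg
Thr-130, TAIR10.1: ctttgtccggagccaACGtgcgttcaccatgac
Thr-130 to Asp, oligo: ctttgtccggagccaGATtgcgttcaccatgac

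Counted from the first base of the coding sequence of 1551 bases, the first oligo carries T217G and C218A, which gives S73D, and the second A388G, C389A and G390T, which gives T130D. The residues 73 and 130 are Ser and Thr in the annotated form of 516 residues. In the shorter annotated form of 439 residues, counted by its own numbering, positions 73 and 130 hold other amino acids. The paper describes a splice variant that lacks Ser-73 but keeps the zinc-finger domain, within which it places Thr-130.

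*IDD4* stood at 198 FPKM in *IDD4-DD* and at 197 FPKM in *IDD4ox*, beside 71.6 FPKM in *IDD4-AA* and 9.23 FPKM in WT. The 2 lines were thus matched in *IDD4* transcript, at 1.01 times each other, and both stood far above WT. Reads of the transgene and of the native gene are not told apart in these values, and protein was not measured here. *IDD5* (AT2G02070), a close relative with the neighbouring identifier, had 23.2 FPKM in *IDD4-DD* and 20.8 FPKM in *IDD4ox*, below the 31.7 FPKM of both *IDD4-AA* and WT. Among the 20 compared IDD and GRAS genes, *IDD4* included, none was 1.5-fold different between the lines, beside 1.64% of all genes higher and 1.77% lower. The median difference was -0.06 on the log2(FPKM + 1) scale. The largest was that of *SHR*, a GRAS gene of root patterning, at 11.2 FPKM in *IDD4-DD* and 15.3 FPKM in *IDD4ox*. The DELLA gene *RGA1* had 42.0 and 43.5 FPKM in *IDD4-DD* and *IDD4ox*.

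The transcriptomes of the 2 lines were close. Over the 19036 genes, Pearson's correlation across genes of log2(FPKM + 1) was 0.982 and Spearman's was 0.981, as a description, since genes are not independent replicates. The median difference, *IDD4-DD* minus *IDD4ox*, was -0.04. In whole seedlings, fewer cells of a type and less RNA per cell cannot be told apart. Among nuclear genes of at least 5 FPKM in both groups of a pair, the median size of the difference was 0.11 between *IDD4-DD* and *IDD4ox*, against 0.13 between *IDD4-DD* and *IDD4-AA*, 0.14 between *IDD4-DD* and WT, and 0.15 between *IDD4ox* and WT. The pairs share groups and were not tested against each other.

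At least 2-fold higher in *IDD4-DD* on FPKM + 1 were 117 genes, 0.615% of those compared, and at least 2-fold lower were 68 genes, 0.357%. At 1.5-fold the numbers were 312 higher (1.64%) and 336 lower (1.77%), so that the larger side depends on the fold counted. Much of the 2-fold excess was plastid-encoded. Of the 117 genes, 40 lie in the plastid and 4 in the mitochondrial genome, and only 1 and 2 of the 68. Over the 18919 nuclear genes, 2-fold differences were found upward for 73 (0.386%) and downward for 65 (0.344%), and at 1.5-fold 250 were higher (1.32%) and 329 lower (1.74%).

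Many of these nuclear genes are weakly expressed, short or listed at 0 in one line. Of the nuclear genes past 2-fold, 25 of the 73 and 24 of the 65 are listed at 0 in one of the 2 lines, which in a table without counts can be a failed estimate. The share past 2-fold was 1.31% among nuclear genes that reached 1 to 5 FPKM in the higher line and 0.442% among those that reached 5 to 20 FPKM. The median annotated gene length was 754 bases for the genes 2-fold higher and 610 bases for those 2-fold lower, against 2351 bases for all genes compared that have a length. Among nuclear genes of at least 5 FPKM and not at 0, 21 exceeded 2-fold upward and 18 downward.

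**Figure D1:**
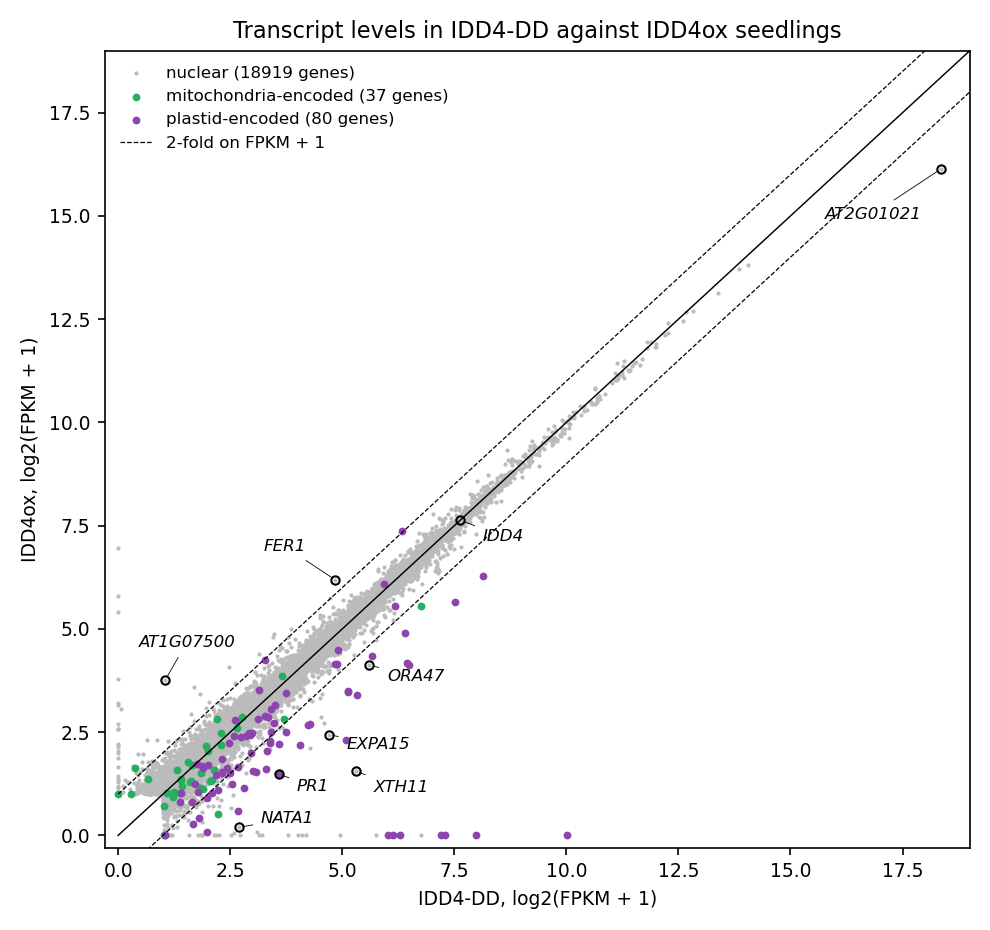
Each point is a gene, with log2(FPKM + 1) in *IDD4-DD* on the x axis and in *IDD4ox* on the y axis, and dashed lines mark 2-fold on FPKM + 1. Nuclear genes (grey, 18919) follow the diagonal with *IDD4* on it, whereas most of the 80 plastid-encoded genes (violet) fall on the *IDD4-DD* side and 7 of them reach over 60 FPKM in *IDD4-DD* while listed at 0 in *IDD4ox*.

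The genes past 2-fold came in several orders when the other 2 groups of the table were read beside them. For the 21 nuclear genes of at least 5 FPKM that were 2-fold higher, *IDD4-DD* was the highest of the 4 groups for 15 and *IDD4ox* the lowest of the 4 for 16, with 10 in both sets. For the 18 that were 2-fold lower, *IDD4ox* was the highest of the 4 for 15 and *IDD4-DD* the lowest for 9, with 7 in both. Choosing genes by the distance between these 2 groups favours such extremes, so these numbers describe the genes and do not test a pattern.

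The largest difference outside genes listed at 0 was that of *XTH11* (AT3G48580), a xyloglucan endotransglucosylase/hydrolase, a family that cuts and rejoins xyloglucan chains of the cell wall. It had 38.3 FPKM in *IDD4-DD* and 1.94 FPKM in *IDD4ox*, a ratio of 19.8 and a difference of 3.74 on the log2(FPKM + 1) scale. With 0.609 FPKM in *IDD4-AA* and 0.759 FPKM in WT, *IDD4-DD* alone stood high. *NATA1* (AT2G39030), a jasmonate-induced acetyltransferase gene, had 5.45 FPKM in *IDD4-DD* and 0.145 FPKM in *IDD4ox*, with 0.404 FPKM in *IDD4-AA* and 0.244 FPKM in WT. It repeated the pattern of *XTH11* at a lower level.

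*PR1* (AT2G14610), the classical marker of salicylic acid defence, followed *XTH11* and *NATA1* with 11.1 FPKM in *IDD4-DD* and 1.79 FPKM in *IDD4ox*, a ratio of 6.17. It stood at 0.321 FPKM in *IDD4-AA* and 0.169 FPKM in WT. *IDD4-DD* was highest here too, and *IDD4ox* second. *PR2*, a glucanase gene of the same response, had 3.91 FPKM in *IDD4-DD* and 0.821 FPKM in *IDD4ox*, with 0.469 FPKM in *IDD4-AA* and 0.241 FPKM in WT, the same order at low values.

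These 2 were the only ones of 23 compared salicylic acid genes that were at least 1.5-fold different, both higher, beside 1.64% of all genes higher. The median of the list was -0.04, equal to that of all genes. *PR5*, a thaumatin-like protein gene, had 4.27 and 3.57 FPKM in *IDD4-DD* and *IDD4ox*, below the 9.36 FPKM of WT. *WRKY70*, a transcription factor gene that acts between salicylic acid and jasmonate signalling, had 79.4 FPKM in *IDD4-DD* and 55.9 FPKM in *IDD4ox*, and the *IDD4-DD* value was that of WT, 79.5 FPKM. The synthesis gene *ICS1* stood at 1.61 FPKM in *IDD4-DD* and 1.72 FPKM in *IDD4ox*. *WRKY38* remained under 1 FPKM in both lines, with 0.397 and 0.263 FPKM. *ICS1* and the weakly expressed *WRKY38* did not show a difference like that of *PR1* and *PR2*, but these genes do not stand for the list. *PBS3*, another member, had 2.183 FPKM in *IDD4-DD* and 1.171 FPKM in *IDD4ox*, a ratio of 1.864. Of the 23 genes compared, 10 were higher in *IDD4-DD* and 13 lower.

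*UGT74F2*, also named *SAGT1*, glucosylates salicylic acid and is the gene whose promoter the study used to measure DNA binding of IDD4. It had 54.6 FPKM in *IDD4-DD*, 56.5 FPKM in *IDD4ox*, 54.2 FPKM in *IDD4-AA* and 59.8 FPKM in WT, all within a narrow range. The probe of that binding assay is shown because it carries the motif AGACAA (capitals), the core of the site recognised by the maize protein ID1. The letters AGACAA occur in it once, although the paper counts a pair of *ID1* motifs in the probe. The study's mutated control probe was altered at this stretch and at a second one. The probe matched TAIR10.1 once, at chr2:18151968-18152002 on the plus strand, and ends 76 bases from the start of *UGT74F2* as annotated there.

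*UGT74F2* probe: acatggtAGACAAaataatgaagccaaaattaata

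AGACAA, or TTGTCT on the other strand, occurred within 500 bases before the annotated start of 34.99% of 18870 nuclear genes compared that could be placed on TAIR10.1. It occurred before 90 of 242 genes at least 1.5-fold higher (37.2%) and before 128 of 326 genes at least 1.5-fold lower (39.3%). At 2-fold the shares were 24 of 68 (35.3%) and 24 of 65 (36.9%). A match of 6 letters is a description of sequence and not a binding site. Of the 834 genes in the table that the study assigned to IDD4 peaks of chromatin immunoprecipitation, 728 were compared. None of these was 2-fold different, beside 0.386% upward and 0.344% downward of the nuclear genes. At 1.5-fold 11 passed upward, beside 1.32% of nuclear genes, and 7 downward, beside 1.74%. Their median difference was -0.05, that of all genes -0.04, and nothing is read from these counts about the list.

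Jasmonate genes were somewhat higher in *IDD4-DD*. Of 26 compared, 19 exceeded their *IDD4ox* value, beside 40.1% of all genes, and 7 did not, the median being 0.20 against -0.04 for all genes, and 4 were at least 1.5-fold higher, beside 1.64% of all genes, with none as much lower, beside 1.77%. They were *NATA1*, *TAT3*, *JAZ7* and *ORA59*. *TAT3*, a tyrosine aminotransferase gene, had 2.19 FPKM in *IDD4-DD* and 0.230 FPKM in *IDD4ox*, with 0.273 FPKM in *IDD4-AA* and 0.0886 FPKM in WT. *ORA59*, an integrator of jasmonate and ethylene signals, had 6.70 FPKM in *IDD4-DD* and 3.5 FPKM in *IDD4ox*, and stood at 6.31 FPKM in *IDD4-AA* and 6.0 FPKM in WT. The 2 genes differ in which line stands apart, *IDD4-DD* for *TAT3* and *IDD4ox* for *ORA59*. *MYC2*, the main transcription factor of the pathway, had 56.6 FPKM in *IDD4-DD* and 43.7 FPKM in *IDD4ox*, both under the 67.9 FPKM of WT. The allene oxide synthase gene *AOS* had 194 and 158 FPKM in *IDD4-DD* and *IDD4ox*. *PDF1.2*, the defensin marker of jasmonate and ethylene, had 5.81 and 5.87 FPKM.

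**Figure D2:**
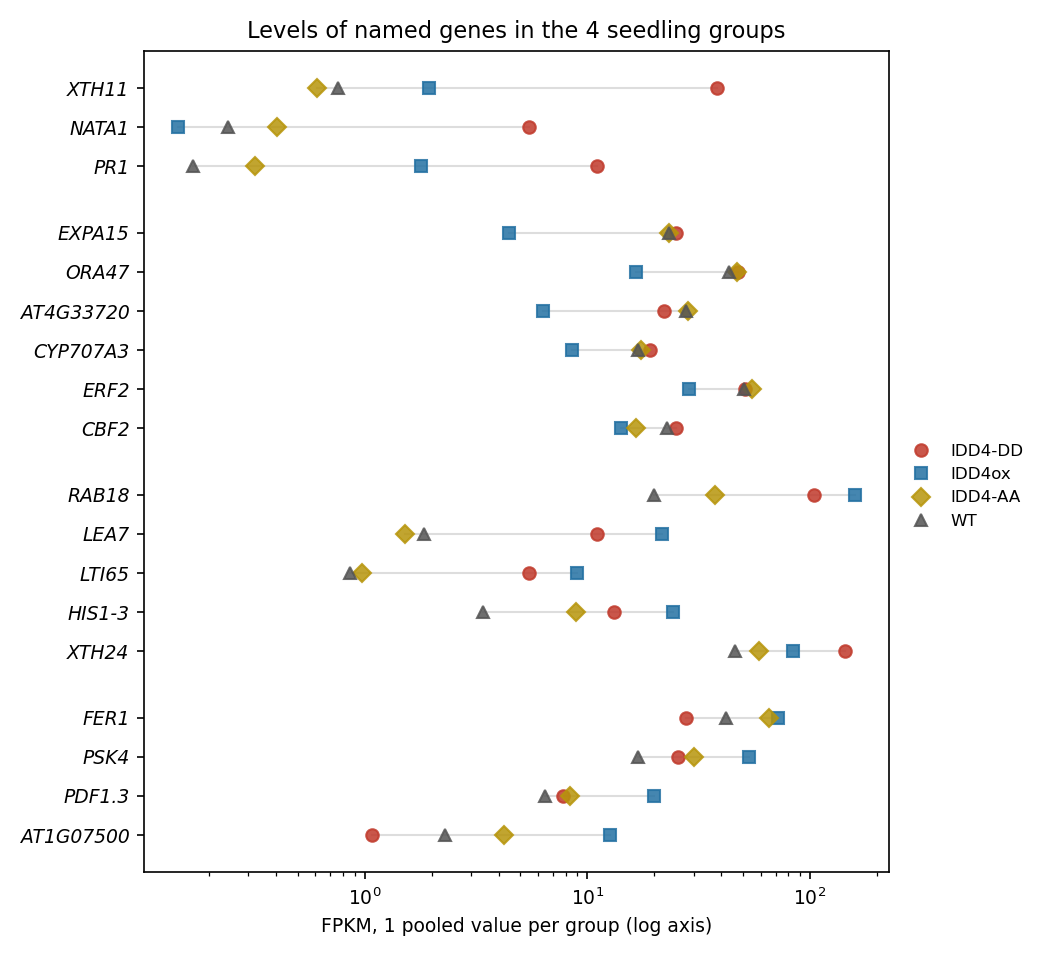
FPKM (log axis) of 18 genes named in the text, 1 pooled value per group, with *IDD4-DD* as circles, *IDD4ox* as squares, *IDD4-AA* as diamonds and WT as triangles. From top to bottom the blocks hold genes for which *IDD4-DD* stood above the rest (*XTH11*, 38.3 FPKM), for which *IDD4ox* was lowest (*EXPA15*, 4.43 FPKM), for which both lines exceeded WT and *IDD4-AA* (*LEA7*), and for which *IDD4ox* was highest (*AT1G07500*, 12.6 FPKM).

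For a second set of genes *IDD4-DD* stood near WT and *IDD4-AA*, and *IDD4ox* was low. *EXPA15* (AT2G03090) encodes an expansin, a protein that loosens cell walls. It had 25 FPKM in *IDD4-DD* and 4.43 FPKM in *IDD4ox*, with 23.4 FPKM in *IDD4-AA* and 23.3 FPKM in WT, so that *IDD4ox* alone stood apart. *ORA47* (AT1G74930), an AP2/ERF factor gene of jasmonate and wound responses, had 47.5 FPKM in *IDD4-DD* and 16.5 FPKM in *IDD4ox*, with 47.2 FPKM in *IDD4-AA* and 43.3 FPKM in WT. *CYP707A3*, which encodes an abscisic acid 8'-hydroxylase, had 19 FPKM in *IDD4-DD* and 8.53 FPKM in *IDD4ox*, with 17.5 and 16.8 FPKM in *IDD4-AA* and WT. AT4G33720, a gene of the CAP family to which *PR1* belongs, had 22.2 FPKM in *IDD4-DD* and 6.33 FPKM in *IDD4ox*, with 28.2 FPKM in *IDD4-AA* and 27.6 FPKM in WT. *ORA47* and AT4G33720 were named after their values were seen.

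Genes known for rapid induction by flg22 shared this order. Of 24 compared, 20 were higher in *IDD4-DD* than in *IDD4ox*, beside 40.1% of all genes, and 4 lower, with a median of 0.36 against -0.04 for all genes, the highest median of the 29 lists. *IDD4ox* was the lowest of the 4 groups for 18 of the 24, while it was so for 16.3% of all genes compared. WT was the highest for 16, beside 20.5% of all genes. At least 1.5-fold higher in *IDD4-DD* were 4, beside 1.64% of all genes, and none was as much lower, beside 1.77%.

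*NHL10*, a common marker of the flg22 response, had 8.39 FPKM in *IDD4-DD* and 3.72 FPKM in *IDD4ox*, with 7.82 FPKM in *IDD4-AA* and 10.6 FPKM in WT. *ERF6*, a transcription factor gene whose product is a MAP kinase substrate, had 108 FPKM in *IDD4-DD* and 67.2 FPKM in *IDD4ox*, with 110 FPKM in *IDD4-AA* and 91.1 FPKM in WT. *ZAT10*, which encodes a zinc finger repressor of stress responses, had 135 FPKM in *IDD4-DD* and 87.4 FPKM in *IDD4ox*, with 134 FPKM in *IDD4-AA* and 180 FPKM in WT. For all 3 genes the *IDD4-DD* value lay close to that of *IDD4-AA*. The calmodulin-like gene *CML38* was the last of the 4, with 13.9 and 8.91 FPKM in *IDD4-DD* and *IDD4ox*.

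Further down the list, *AP2C1*, a phosphatase gene that acts on MAP kinases, had 22.3 FPKM in *IDD4-DD* and 14.8 FPKM in *IDD4ox*, with 28.4 FPKM in WT. *ERF5* had 50.3 FPKM in *IDD4-DD* and 36.3 FPKM in *IDD4ox*, with 69.5 FPKM in WT. *ERF104*, whose product is a substrate of MPK6, had 265 FPKM in *IDD4-DD* and 209 FPKM in *IDD4ox*, with 278 FPKM in WT, and *WRKY33*, a regulator of camalexin synthesis, had 47.6 and 37.8 FPKM in *IDD4-DD* and *IDD4ox*, with 50.4 FPKM in WT. In these 4 genes *IDD4-DD* lay between *IDD4ox* and WT. The members against the trend had low values, such as *WRKY29* with 3.38 FPKM in *IDD4-DD* and 4.55 FPKM in *IDD4ox*. The 21 pattern receptor and MAPK cascade genes did not share the shift, with a median of 0.01. None was 1.5-fold different, beside 1.64% of all genes higher and 1.77% lower. The receptor gene of bacterial EF-Tu, *EFR*, was the furthest upward, with 4.69 FPKM in *IDD4-DD* and 3.32 FPKM in *IDD4ox*, and the kinase gene *MKK1* the furthest downward, with 2.02 and 3.13 FPKM.

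**Figure D3:**
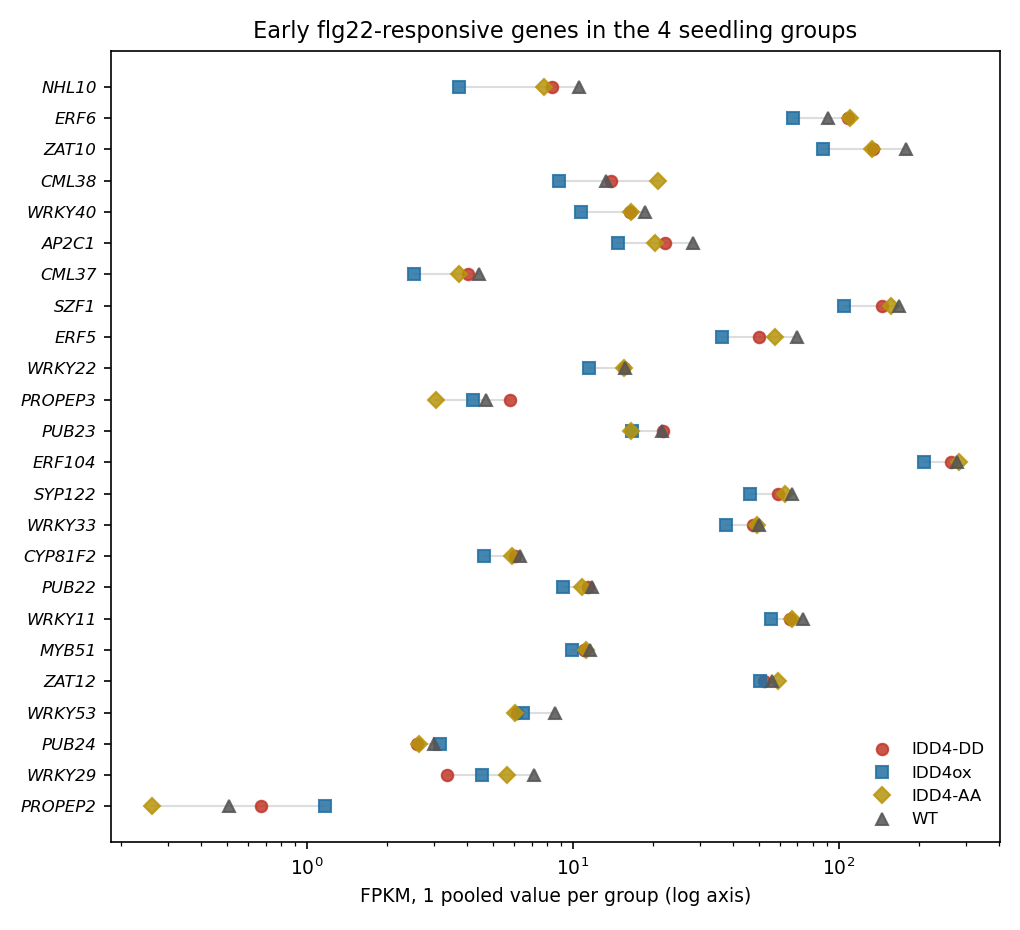
FPKM (log axis) of the 24 early flg22-responsive genes, 1 pooled value per group, ordered by the difference between *IDD4-DD* (circles) and *IDD4ox* (squares) with the largest at the top. *IDD4ox* is the leftmost point for 18 of the 24 genes, *NHL10* (3.72 FPKM) among them.

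A few genes of the ethylene and cold lists also had their lowest value in *IDD4ox*. *ERF2* had 50.8 FPKM in *IDD4-DD* and 28.7 FPKM in *IDD4ox*, with 55.1 FPKM in *IDD4-AA* and 50.5 FPKM in WT. *ERF-1* had 55.0 FPKM in *IDD4-DD* and 35.2 FPKM in *IDD4ox*, with 55.5 FPKM in *IDD4-AA* and 43.2 FPKM in WT. They were the only 2 of 18 ethylene genes past 1.5-fold, both higher, beside 1.64% of all genes. That list had a median of 0.01, with *EIN3*, the main transcription factor of ethylene signalling, at 52.1 and 54.9 FPKM in *IDD4-DD* and *IDD4ox*. *CBF2*, a regulator of cold-induced genes, had 25 FPKM in *IDD4-DD* and 14.2 FPKM in *IDD4ox*, with 16.5 FPKM in *IDD4-AA* and 22.9 FPKM in WT. There *IDD4-AA* lay nearer to *IDD4ox* than to *IDD4-DD*. Its relative *CBF3* went the other way, with 11.5 FPKM in *IDD4-DD* and 17.2 FPKM in *IDD4ox*. The 13 cold regulators had a median of -0.14.

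Cell wall genes contributed single large differences rather than a shift. Of 25 compared xyloglucan enzymes and expansins, a list that lacks *XTH11*, 4 were at least 1.5-fold higher in *IDD4-DD*, beside 1.64% of all genes, and none lower, beside 1.77%, and the median was 0.03. Besides *EXPA15* these were *XTH24*, *XTH17* and *XTH22*. *XTH24* had 143 FPKM in *IDD4-DD* and 84.0 FPKM in *IDD4ox*, with 59.1 FPKM in *IDD4-AA* and 46.1 FPKM in WT, so that both lines exceeded WT. *XTH22*, the touch-induced gene *TCH4*, had 252 FPKM in *IDD4-DD* and 158 FPKM in *IDD4ox*, with 240 FPKM in *IDD4-AA* and 182 FPKM in WT. *XTH17* had 25.1 FPKM in *IDD4-DD* and 15.1 FPKM in *IDD4ox*, while its close relative *XTH18* had 29.5 and 25.4 FPKM, and similar copies of this family can share reads. The order of the 4 groups was hence not the same from one wall gene to the next.

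Genes of abscisic acid and water deprivation stood lower in *IDD4-DD*. Only 4 of 26 compared exceeded their *IDD4ox* value, beside 40.1% of all genes, and the median was -0.18. *IDD4ox* was the highest of the 4 groups for 18, against 34.8% of all genes. At least 1.5-fold lower were 4, beside 1.77% of all genes, namely *LEA7*, *HAI2*, *COR15B* and *RD29B*. *CYP707A3* was the only one as much higher, beside 1.64%.

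*LEA7*, a late embryogenesis abundant protein gene of dry tissues, had 11.1 FPKM in *IDD4-DD* and 21.6 FPKM in *IDD4ox*, with 1.52 FPKM in *IDD4-AA* and 1.85 FPKM in WT. *RD29B*, a dehydration marker, had 5.47 FPKM in *IDD4-DD* and 8.97 FPKM in *IDD4ox*, with 0.969 FPKM in *IDD4-AA* and 0.855 FPKM in WT. The dehydrin gene *RAB18* (AT5G66400), which was left out of the list because its symbol names 2 genes of the reference and is given after its value was seen, had 105 FPKM in *IDD4-DD* and 159 FPKM in *IDD4ox*, with 37.6 FPKM in *IDD4-AA* and 19.9 FPKM in WT. In these 3 genes both lines with high *IDD4* transcript stood well above WT, and *IDD4-DD* stood at a smaller distance from it. *COR15B*, which protects chloroplast membranes in the cold, did not have that order, with 405 FPKM in *IDD4-DD* and 645 FPKM in *IDD4ox*, beside 421 FPKM in *IDD4-AA* and 479 FPKM in WT.

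The other genes with the lowest values in *IDD4-DD* relative to *IDD4ox* were of mixed function. *FER1* (AT5G01600), which encodes the iron store ferritin, had 27.8 FPKM in *IDD4-DD* and 71.9 FPKM in *IDD4ox*, a ratio of 0.386, with 65.6 FPKM in *IDD4-AA* and 41.7 FPKM in WT. It was the only one of 23 iron genes at least 1.5-fold lower, beside 1.77% of all genes. *CYP82C4*, an enzyme of coumarin synthesis under iron deficiency, was the only one as much higher, beside 1.64% of all genes. It had 65.3 FPKM in *IDD4-DD* and 42.7 FPKM in *IDD4ox*, with 10.8 FPKM in *IDD4-AA* and 62.9 FPKM in WT. The iron transporter gene *IRT1* had 96.7 FPKM in *IDD4-DD* and 74.6 FPKM in *IDD4ox*, and *FER4* had 11.7 and 15.9 FPKM. All 3 ferritin genes of the list had the lower value in *IDD4-DD*. Genes of uptake and its regulation went both ways, with *FRO2*, the iron reductase gene, at 6.90 FPKM in *IDD4-DD* and 5.41 FPKM in *IDD4ox*, and the regulator *BHLH100* at 65.1 and 69.6 FPKM. The list as a whole had a median of 0.10.

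AT1G07500, listed in RefSeq also as SIAMESE-RELATED 5, a family of cell cycle inhibitors, had 1.08 FPKM in *IDD4-DD* and 12.6 FPKM in *IDD4ox*, with 4.22 FPKM in *IDD4-AA* and 2.30 FPKM in WT. The F-box gene AT1G19070 had 0.0414 FPKM in *IDD4-DD* and 7.37 FPKM in *IDD4ox*, with 0.193 FPKM in WT, and is listed at 0 in *IDD4-AA*. In both, *IDD4ox* alone stood high. *PDF1.3*, a plant defensin gene, had 7.77 FPKM in *IDD4-DD* and 19.9 FPKM in *IDD4ox*, with 8.37 and 6.44 FPKM in *IDD4-AA* and WT. *PSK4*, a precursor of the growth peptide phytosulfokine that is named after its values were seen, had 25.4 FPKM in *IDD4-DD* and 53.0 FPKM in *IDD4ox*, with 30.3 FPKM in *IDD4-AA* and 17 FPKM in WT. AT5G39240, a relative of the root growth regulator UPBEAT, had 9.93 and 26.8 FPKM in *IDD4-DD* and *IDD4ox*. The others among the 10 lowest, AT3G21351, AT3G27027, AT3G53670, AT4G30097 and AT5G25750, are annotated as uncharacterised or by a domain of unknown function, with ratios between 0.201 and 0.358.

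Among genes listed at 0 in *IDD4-DD*, AT5G14560 had 124 FPKM in *IDD4ox* and AT4G25707 had 41.4 FPKM, and both are also listed at 0 in *IDD4-AA* and WT. AT2G01023, with 55.01 FPKM in *IDD4ox* and 42.4 FPKM in WT, is listed at 0 in *IDD4-AA*. Such genes are part of the counts over all genes given above, and the counts without them stand with the alternatives.

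**Figure D4:**
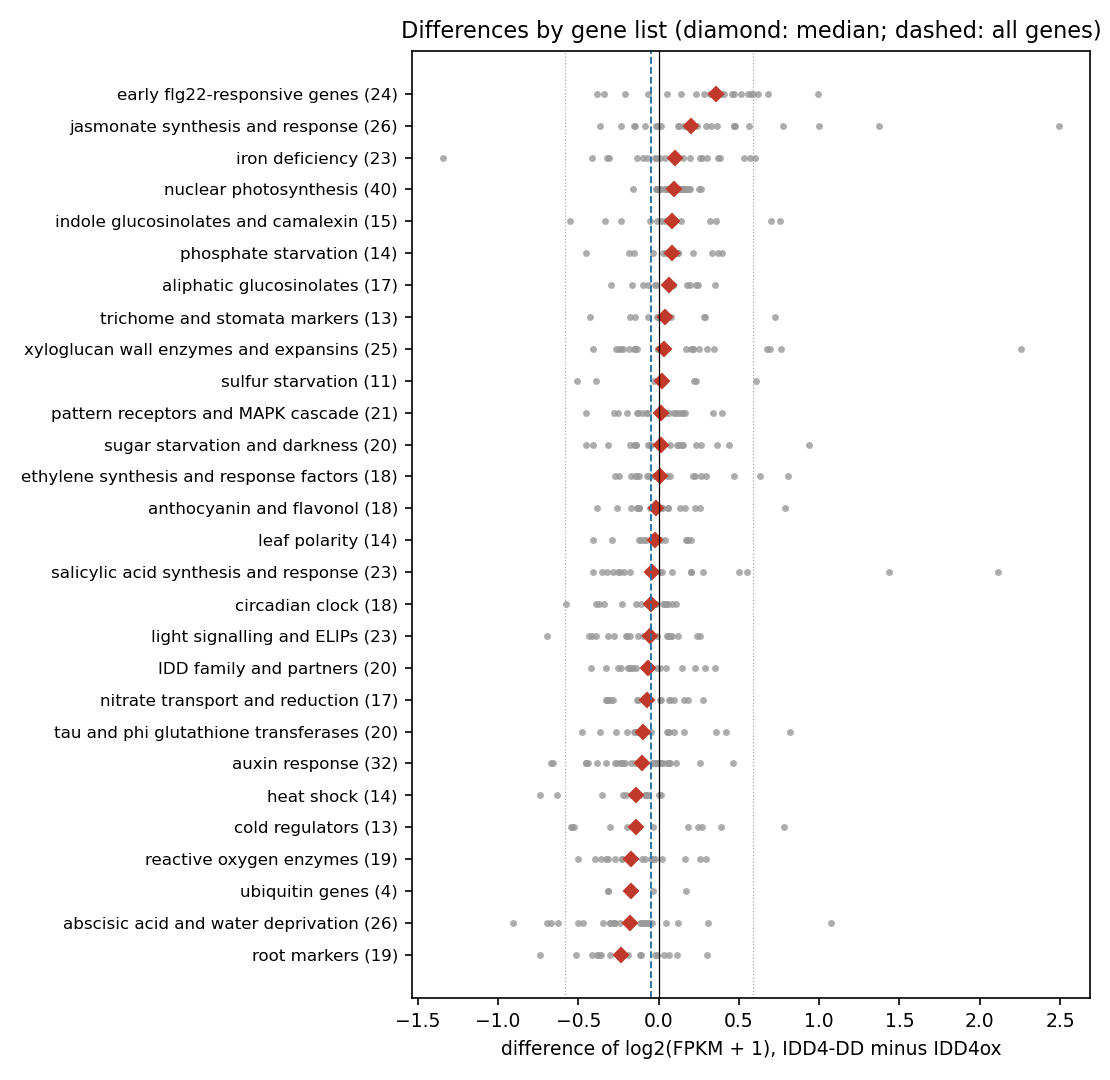
Differences of log2(FPKM + 1), *IDD4-DD* minus *IDD4ox*, for the members (grey points) of 28 gene lists with at least 4 genes compared, with the number compared in parentheses. Red diamonds are list medians, dotted lines mark 1.5-fold and the dashed line the median of all genes (-0.04). The early flg22-responsive list lies furthest to the right (0.36) and the root markers furthest to the left (-0.23).

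Growth and metabolism lists moved little. Of 32 auxin response genes, 22 had the lower value in *IDD4-DD* and 10 the higher, beside 40.1% of all genes higher, and the median was -0.10. The SAUR genes *SAUR15* and *SAUR22* were the only ones past 1.5-fold, both lower, beside 1.77% of all genes. *SAUR15* had 4.30 FPKM in *IDD4-DD* and 7.43 FPKM in *IDD4ox*, with 3.92 FPKM in WT. Aliphatic glucosinolate genes had a median of 0.07 with none of 17 past 1.5-fold, circadian clock genes -0.05 with none of 18, leaf polarity genes -0.02 with none of 14, and nitrate genes -0.07 with none of 17. Over all genes 1.64% were as much higher and 1.77% as much lower, so nothing is read from these counts of none. Scaling to the median of ratios turned the sign of the leaf polarity median, as given with the alternatives.

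Of 15 genes of indole glucosinolates and camalexin, the indole phytoalexin, 2 were past 1.5-fold, both upward, beside 1.64% of all genes. The median was 0.09. *PAD3*, the last enzyme of camalexin synthesis, had 10.7 FPKM in *IDD4-DD* and 5.94 FPKM in *IDD4ox*, beside 4.48 FPKM in *IDD4-AA* and 4.91 FPKM in WT. *CYP71A12*, of the same pathway, had 1.62 FPKM in *IDD4-DD* and 0.612 FPKM in *IDD4ox*, both below the 3.40 FPKM of WT. The methyltransferase gene *IGMT1* was on the other side, with 15.8 FPKM in *IDD4-DD* and 23.6 FPKM in *IDD4ox*. Of 11 sulfur starvation genes, with a median of 0.02, 1 passed 1.5-fold, upward, beside 1.64% of all genes. It was *LSU3*, which had 65.7 FPKM in *IDD4-DD* and 42.8 FPKM in *IDD4ox*, with 61.9 FPKM in *IDD4-AA* and 43.2 FPKM in WT. Its relative *LSU1* had 77.5 FPKM in *IDD4-DD* and 77.4 FPKM in *IDD4ox*, and the sulfate transporter gene *SULTR4;2* had 3.46 and 4.85 FPKM. Reactive oxygen enzymes had a median of -0.17 with none past 1.5-fold, beside 1.64% of all genes higher and 1.77% lower. Of 19 compared, 15 were lower and 4 higher, beside 40.1% of all genes higher. Among the lower was *APX1*, an ascorbate peroxidase gene, at 67.8 FPKM in *IDD4-DD* and 89.5 FPKM in *IDD4ox*.

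Most nuclear photosynthesis genes were slightly higher in *IDD4-DD*. Of 40 compared, 35 had the higher value in *IDD4-DD* and the median was 0.10, while 40.1% of all genes were higher. None was 1.5-fold different, beside 1.64% of all genes higher and 1.77% lower. The Rubisco small subunit gene *RBCS1A* had 17084 FPKM in *IDD4-DD* and 14344 FPKM in *IDD4ox*, and the activase gene *RCA* had 1587 FPKM in *IDD4-DD* and 1385 FPKM in *IDD4ox*. Among the 5 lower genes was *RBCS2B*, with 3569 FPKM in *IDD4-DD* and 3979 FPKM in *IDD4ox*. *IDD4ox* was the lowest of the 4 groups for 25 of the 40, beside 16.3% of all genes, and WT the highest for 20, beside 20.5%. Copies of the *RBCS* genes can share reads.

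Plastid-encoded genes showed the widest shift of any group of genes. There were 88, of which 80 were compared. *IDD4-DD* had the higher value for 75 of these, beside 40.1% of all genes, and the lower for 5. At least 1.5-fold higher were 53 and at least 2-fold higher 40, beside 1.64% and 0.615% of all genes. As much lower were 2 and 1, beside 1.77% and 0.357%. Both of the higher counts include 8 genes listed at 0 in *IDD4ox*. Their gene names are not given by the sources used here. ATCG00020 had 280 FPKM in *IDD4-DD* and 77.0 FPKM in *IDD4ox*, with 43.6 FPKM in *IDD4-AA* and 64.4 FPKM in WT. ATCG00490 had 182 FPKM in *IDD4-DD* and 49.3 FPKM in *IDD4ox*, with 41.5 FPKM in *IDD4-AA* and 56.4 FPKM in WT. In both, *IDD4-DD* stood above the other 3 groups. ATCG00760 was the exception past 2-fold, with 79.0 FPKM in *IDD4-DD* and 163 FPKM in *IDD4ox*.

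Over the 69 compared plastid genes above 0 in all 4 groups, the median level was 7.90 FPKM in *IDD4-DD* and 4.22 FPKM in *IDD4ox*. It was 4.14 FPKM in both *IDD4-AA* and WT. *IDD4-DD* was the highest of the 4 for 57, beside 20.7% of all genes compared. The median ratio of *IDD4-DD* to *IDD4ox* was 2.24. The summed FPKM over all 88 plastid genes had another order, with WT highest at 5241 FPKM, above 3381 FPKM in *IDD4-DD*, 773 FPKM in *IDD4ox* and 803 FPKM in *IDD4-AA*. Genes listed at 0 in some groups had other orders too. ATCG00220 had 1040 FPKM in *IDD4-DD* and 1253 FPKM in WT and is listed at 0 in *IDD4ox* and *IDD4-AA*, with WT highest as for ATCG00080 and ATCG00065. ATCG00570, also listed at 0 in both, had 252 FPKM in *IDD4-DD* and 78.2 FPKM in WT.

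Another abundant transcript moved with the plastid genes between these 2 lines. AT2G01021, a locus with the next identifier after the ribosomal RNA gene AT2G01020, had 335983 FPKM in *IDD4-DD* and 72108 FPKM in *IDD4ox*, with 188518 FPKM in *IDD4-AA* and 159328 FPKM in WT. It took 34.03% of the summed FPKM in *IDD4-DD* and 10.09% in *IDD4ox*. Its part in the plastid difference was not tested. Without this gene the sums were close, at 651267 FPKM in *IDD4-DD* and 642686 FPKM in *IDD4ox*.

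**Figure D5:**
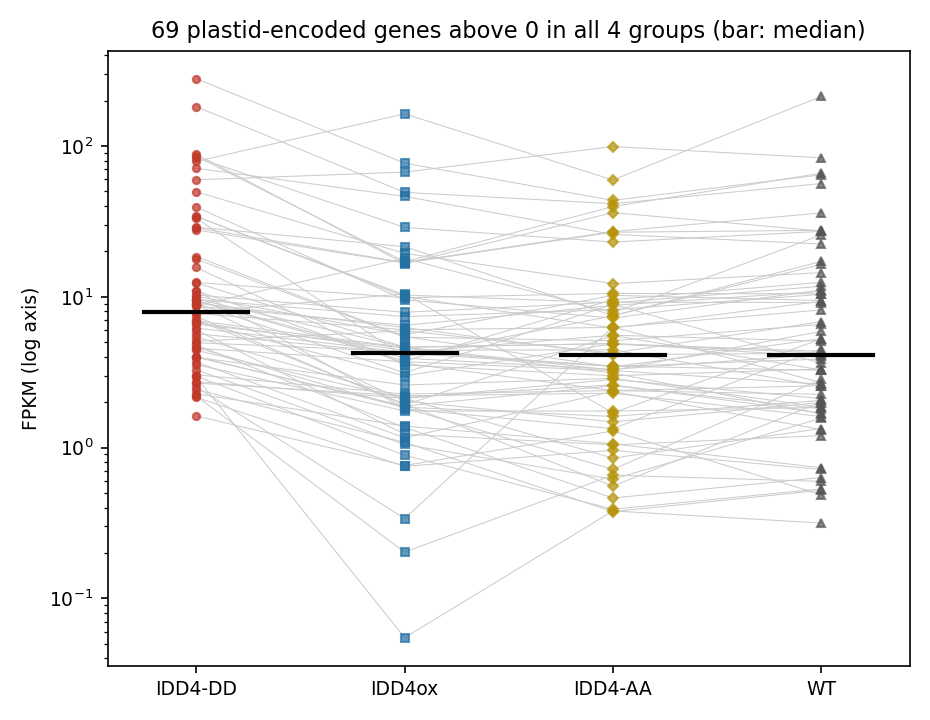
FPKM (log axis) of the 69 compared plastid-encoded genes that are above 0 in all 4 groups, joined by grey lines, with black bars at the group medians. The median was 7.90 FPKM in *IDD4-DD* and between 4.14 and 4.22 FPKM in the other 3 groups.

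Markers of single tissues were checked because whole seedlings were used. Of 19 compared root markers, 15 had the lower value in *IDD4-DD* and 4 the higher, beside 40.1% of all genes higher. The median was -0.23. The summed level of the list was 230 FPKM in *IDD4-DD* and 269.6 FPKM in *IDD4ox*, beside 257 FPKM in *IDD4-AA* and 383 FPKM in WT. *CASP4*, of the Casparian strip, was the only one past 1.5-fold, beside 1.77% of all genes lower, with 3.05 and 5.75 FPKM in *IDD4-DD* and *IDD4ox*. The root hair gene *RHS13* had the lowest ratio after *CASP4*, with 20.9 FPKM in *IDD4-DD* and 30.3 FPKM in *IDD4ox*. Another root hair gene, *RHS10*, was nearly equal, with 2.14 and 2.16 FPKM. *RSL4* was among the 4 higher members of the list, with a ratio of 1.378. The part of tissue make-up in the other differences was not tested. Of 18 seed markers 1 reached 1 FPKM, and 13 trichome and stomata markers had a median of 0.04.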

How the data were processed

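The authors sequenced paired-end mRNA libraries, and the deposited table gives FPKM per gene and group, computed with Trimmomatic, TopHat and Cufflinks on TAIR10 by their methods. The submitters' processing notes also name Bowtie2. The labels give 2 samples per group, the paper another number, and the sources name different sequencer models. Of 27371 identifiers, 21642 stood away from their alphabetical place. They were sorted beside the values, which was decided after the values were seen. With sorted identifiers the *IDD4ox* to WT log2 ratio equalled that of the study's table within 0.01 after a constant shift of 0.05 for 134 of 135 genes, and with the order as given for 30 of 115. Names came from RefSeq TAIR10.1 for 26703 identifiers.

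Differences are of log2(FPKM + 1), *IDD4-DD* minus *IDD4ox*, for genes of at least 1 FPKM in either line, in Python 3.11.15 with pandas 2.3.3. The members and the 29 lists (642 entries, 31 without a unique match) were chosen with earlier results of these data known. The named genes were drawn from the IDD family, genes the study names, the 10 highest and 10 lowest differences of at least 5 FPKM without a 0, the 4 highest genes listed at 0 each way, and up to 4 members per list. Not all of them are printed here. Counting was tested on simulated data.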

Additional observations from a re-analysis of the deposited data

How the results depend on the processing

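The numbers of genes 2-fold higher and lower, 117 and 68, depended on low values. They were 228 and 202 with 0.1 FPKM added instead of 1, 42 and 15 with 5 FPKM added, 64 and 26 among genes of at least 5 FPKM in either line, and 312 and 336 at 1.5-fold. Without genes listed at 0 in one line they were 82 and 43, and with nuclear genes alone, an alternative chosen after seeing the data, 73 and 65. Without a filter, with the median of ratios (log2 shift -0.04, which gave 126 and 61) or with the nuclear sum without its 10 highest genes (118 and 68) they remained within 1.5 times. Across the 7 alternatives run for them, no list median moved by 0.2 or more, but those near 0 turned sign, leaf polarity with at least 5 FPKM and with the median of ratios, trichome and stomata markers with at least 5 FPKM, and anthocyanin genes with the median of ratios. Pseudocounts of 0.1 and 5 moved 21 and 38 of 160 named genes by that much, and the median of ratios turned the sign of 2, *UBQ11* and *IDD1*. No paired analysis was possible because the table holds 1 value pooled over replicates per group, and no replicate could be left out for the same reason. Read depth is unknown, so no interval or limit of detection can be given.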

Other observations

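Families of small secreted peptides and growth genes were looked up by annotation after their values were seen. Some SAUR genes, *SAUR15* and *SAUR22* among them, had already been counted in the auxin response list. Of 16 compared genes annotated as defensins or defensin-like, 14 were lower in *IDD4-DD* than in *IDD4ox* and 2 higher, beside 40.1% of all genes higher. Their median difference was -0.49 on the log2(FPKM + 1) scale against -0.04 for all genes. At least 1.5-fold lower were 5, beside 1.77% of all genes, and none was as much higher, beside 1.64%. *PDF1.2b* had 2.79 FPKM in *IDD4-DD* and 4.44 FPKM in *IDD4ox*, with 1.61 FPKM in *IDD4-AA* and 0.759 FPKM in WT. AT4G22235 had 4.39 and 7.85 FPKM in *IDD4-DD* and *IDD4ox*. *IDD4ox* was the highest of the 4 groups for 12 of the 16, beside 34.8% of all genes. Most of these genes are short and weakly expressed, and the *PDF1* copies can share reads.

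Of 22 compared *CLE* genes, which encode short signalling peptides of meristems and vasculature, 5 were at least 1.5-fold lower in *IDD4-DD*, beside 1.77% of all genes, and 1 higher, beside 1.64%. Of the 5, *CLE7* is listed at 0 in *IDD4-DD*, *IDD4-AA* and WT and had 4.95 FPKM in *IDD4ox*. *CLE2* had 14.3 FPKM in *IDD4-DD* and 25.9 FPKM in *IDD4ox*, and *CLE1* had 5.81 and 2.28 FPKM, so that members of the family differed in opposite directions. The 63 compared genes of the SAUR family, which respond quickly to auxin, did likewise, with 11 at least 1.5-fold lower, beside 1.77% of all genes, 6 higher, beside 1.64%, and a median of -0.09. *SAUR29* had 7.26 FPKM in *IDD4-DD* and 14.5 FPKM in *IDD4ox*, with 11.4 FPKM in *IDD4-AA* and 7.02 FPKM in WT, while AT4G34790 had 4.76 FPKM in *IDD4-DD* and 2.25 FPKM in *IDD4ox*. Many SAUR genes lie in tandem groups whose similar copies can share reads.

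Of 273 compared ribosomal protein genes 1 was at least 1.5-fold higher, beside 1.64% of all genes, and 1 lower, beside 1.77%, with a median of -0.02. The higher one was AT3G08520 of the ribosomal protein L41 family, a very short gene product, with 18.4 FPKM in *IDD4-DD* and 3.33 FPKM in *IDD4ox*, beside 24.7 FPKM in *IDD4-AA* and 36.0 FPKM in WT. The linker histone gene *HIS1-3*, which is induced by drought and abscisic acid, had 13.1 FPKM in *IDD4-DD* and 24.3 FPKM in *IDD4ox*, with 8.92 FPKM in *IDD4-AA* and 3.41 FPKM in WT.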
